A study of Mus musculus with 6 samples.

Results

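The genes described here were 43 members of the bone morphogenetic protein (BMP) and transforming growth factor beta (TGF-beta) pathways. They were taken by name from a list of ligands, receptors, secreted antagonists, Smad proteins and Id target genes. The list was chosen with earlier results of these data known. All 43 were measured, among 26394 features (named genes, or probes without a matched name) whose signal was well above background on 2 or more arrays of the 6. Transcript levels came from one-colour Agilent arrays of mouse embryonic kidneys at E14.5, all of a mixed 129 and C57BL/6 background. The Six2Cre line, with floxed Sall1 deleted in nephron progenitors, gave 2 control samples (replicates 5 and 2) and 2 Sall1 knockout samples (replicates 7 and 9). In the inducible Sall1CreER line there was 1 control array (replicate 2, titled wt/flox) and 1 Sall1 knockout array (replicate 5, titled CreER/flox), with tamoxifen at E12.5 and dissection 48 hours later. Tamoxifen is mentioned in a description given to all 6 samples, and it is not stated whether mice of the Six2Cre line were given it. CreER was named for the knockout of its pair alone, so that its presence and the loss of Sall1 cannot be told apart there. The sources used here do not say whether Cre was present in the Six2Cre controls, which exons of Sall1 were flanked by loxP sites, how many kidneys made up a sample, or whether the arrays came from separate embryos.

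BMP, TGF-beta and activin ligands bind pairs of type I and type II serine/threonine kinase receptors, which phosphorylate receptor Smads that enter the nucleus with Smad4. Smad1, Smad5 and Smad9 carry the BMP signal, Smad2 and Smad3 carry the TGF-beta and activin signal, and Smad6 and Smad7 are inhibitory Smads. Secreted antagonists such as noggin, gremlin, chordin and follistatin bind the ligands outside the cell. In the embryonic kidney Bmp7 is made by the nephron progenitors and the ureteric bud and maintains the progenitors, Grem1 lowers BMP activity so that the ureteric bud can branch, and the Id genes are direct targets of BMP signalling.

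Promoter windows of 5 members are shown because they hold, or lack, short motifs named for these pathways beside genes whose values are given in full or, for Id4, a standard BMP target. Each is the 250 bases before the gene's start in the RefSeq annotation of GRCm38.p6, 5′ to 3′ on the gene's strand. Capitals mark CACGTG (an E-box) or CAGACA (the core of the Smad-binding CAGA box) in Tgfb2, and GGCGCC (a BMP-responsive GC element) in Chrd, Grem1 and Id4. Inhba had none of these motifs in its window.
Tgfb2 (chr1:186705990-186706239, minus strand): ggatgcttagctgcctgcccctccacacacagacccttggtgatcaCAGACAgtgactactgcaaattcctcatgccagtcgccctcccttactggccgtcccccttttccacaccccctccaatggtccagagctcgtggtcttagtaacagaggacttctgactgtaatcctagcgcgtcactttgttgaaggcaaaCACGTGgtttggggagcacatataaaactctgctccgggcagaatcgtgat
Inhba (chr13:16011601-16011850, plus strand): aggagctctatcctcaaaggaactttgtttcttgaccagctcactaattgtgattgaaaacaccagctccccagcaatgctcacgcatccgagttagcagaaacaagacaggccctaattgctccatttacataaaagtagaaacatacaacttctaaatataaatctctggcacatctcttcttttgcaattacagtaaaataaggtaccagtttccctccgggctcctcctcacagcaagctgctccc
Chrd (chr16:20732877-20733126, plus strand): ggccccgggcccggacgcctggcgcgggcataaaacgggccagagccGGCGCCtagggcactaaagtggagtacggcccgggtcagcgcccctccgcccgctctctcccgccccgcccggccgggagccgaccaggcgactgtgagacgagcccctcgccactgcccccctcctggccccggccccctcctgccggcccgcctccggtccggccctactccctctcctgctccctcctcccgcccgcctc
Grem1 (chr2:113758649-113758898, minus strand): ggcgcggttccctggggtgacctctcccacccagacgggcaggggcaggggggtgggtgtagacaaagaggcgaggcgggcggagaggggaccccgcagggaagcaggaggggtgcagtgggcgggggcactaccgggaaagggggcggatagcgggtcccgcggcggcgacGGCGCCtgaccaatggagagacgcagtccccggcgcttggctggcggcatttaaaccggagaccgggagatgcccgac
Id4 (chr13:48260866-48261115, plus strand): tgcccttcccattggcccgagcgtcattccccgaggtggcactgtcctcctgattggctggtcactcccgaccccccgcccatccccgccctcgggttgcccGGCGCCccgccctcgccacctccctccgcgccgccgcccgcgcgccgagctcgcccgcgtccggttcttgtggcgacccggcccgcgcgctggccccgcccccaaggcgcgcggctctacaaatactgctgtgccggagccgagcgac

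Motifs were searched on both strands in the 32851 promoter windows of the table, of the same length, in which 30 of the 43 members had an entry. GGCGCC stood in the windows of 9 matched members (Bmpr1a, Bmpr2, Chrd, Grem1, Id2, Id4, Smad5, Smad9 and Tgfbr1) and in 9.59% of all windows. CAGACA, or its complement TGTCTG, stood in those of 6 members (Bmp5, Bmpr1b, Fstl3, Ltbp1, Tgfb2 and Tgfbr1) and in 17.1% of all windows. CACGTG stood in those of 3 members (Bmp4, Bmp6 and Tgfb2) and in 6.02% of all windows, and TGACGTCA, the cAMP response element, in that of Ltbp1 and in 1.55% of all windows. No motif searched overlapped another in the windows shown.

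Sall1 itself was lower by 1.25 log2 units in the Six2Cre knockouts (2.38-fold) and lower by 2.78 in the CreER knockout (6.86-fold), each by its only probe. Between 80.0% and 82.9% of probes were well above background on 5 arrays and 71.8% on the CreER knockout, where the negative control spots also varied more (SD 4.01, against 1.46 to 1.61). In the Six2Cre comparison 10 of 10 nephron progenitor and 7 of 7 early nephron markers had a lower mean in the knockouts. So did 5 of 5 podocyte and 5 of 5 proximal tubule markers, where 46.1% of all features were lower and 53.9% higher. Among these markers, Gdnf (-0.04), Pax8 (-0.01) and Synpo (-0.09) were near 0 in log2 units, with overlapping groups. The summed signal of the progenitor list, in units of the array's 75th percentile, was 38.5 and 45.5 in the Six2Cre controls and 14.9 and 15 in the knockouts. It was 46.7 and 29.2 in the CreER control and knockout. In that pair Cited1 fell the most, from 3.90 to 1.05 on the log2 scale, and weighed heavily on the sum. The list's median log2 difference there was -0.38, and Meox1 (0.10), Traf1 (0.10) and Itga8 (0.01) were not lower. Stromal markers were higher for 9 of 10, with a summed signal of 118 and 137 in the Six2Cre controls against 187 and 211 in the knockouts, and 108 and 115 in the CreER control and knockout. Macrophage and leukocyte markers were higher for 5 of 5 in the Six2Cre comparison, with sums of 2.45 and 3.1 in the controls against 3.97 and 5.1. Erythroid markers were higher for 4 of 4, with sums of 257 and 290 against 305 and 326. Muscle markers summed to 22.6 on Six2Cre control 2 and to between 1.31 and 2.96 on the other 5 arrays, so the slide 1 pair, which does not hold that array, is given beside the mean for the genes described array by array. No marker list summed to 0 on any array. In whole kidneys, fewer cells of a type and less RNA per cell cannot be told apart, and the part of these cell type markers in the results that follow was not tested.

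**Figure D1:**
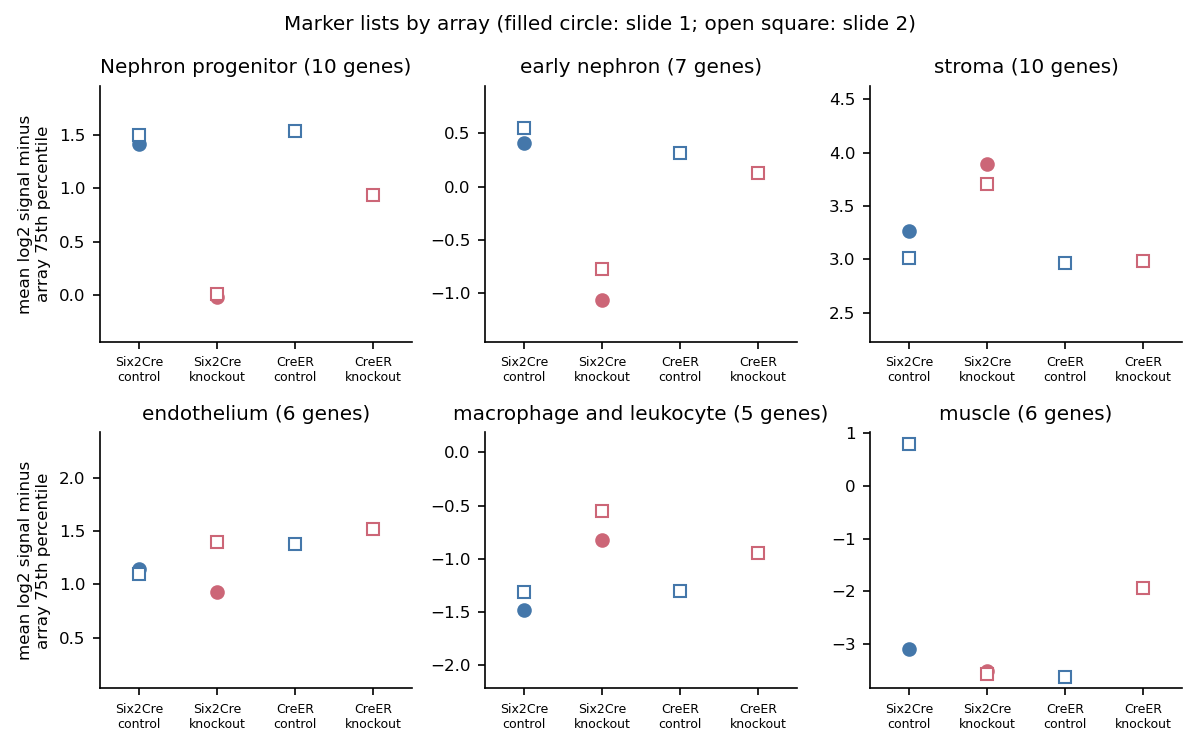
Mean log2 signal relative to the array's 75th percentile over the markers of 6 cell type lists, for controls (blue) and knockouts (red) of each line, with a filled circle for a slide 1 array, an open square for a slide 2 array and a separate axis range for each panel. The nephron progenitor means were 1.42 and 1.5 in the Six2Cre controls against -0.02 and 0.01 in the knockouts, the stromal means 3.26 and 3.01 against 3.89 and 3.71, and the muscle mean stood at 0.79 on Six2Cre control 2 and between -3.62 and -1.94 on the other 5 arrays.

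Values of single genes are log2 signal relative to the array's 75th percentile, and differences are knockout minus control. In the Six2Cre comparison, the largest mean differences upward were those of 3 of the 6 TGF-beta, activin and GDF ligands: Tgfb3, Inhba and Tgfb2 were at least 2-fold higher within each slide pair, while Grem1, Acvr2b, Smad9 and Bmp7 were lower. At least 2-fold in both pairs were 1.54% of all features higher and 1.68% lower, the latter with no member. With 2 arrays per group, limma called none of the 43 members at an adjusted p under 0.05, and 0% of all features in either direction. At an unadjusted p under 0.05, limma had 5 members higher (11.6% of members, against 3.61% of all features) and 1 lower (2.33%, against 2.7%). The 5 were Bmp5, Chrd, Inhba, Tgfb2 and Tgfb3, and the 1 was Grem1. By size, 5 members were at least 1.5-fold higher in both slide pairs (Bmp3, Bmp5, Inhba, Tgfb2 and Tgfb3), as were 4.52% of all features. Acvr2b, Grem1 and Smad9 were at least 1.5-fold lower in both pairs, as were 3.2% of all features. The medians of the difference were 0.00 over the members and 0.03 over all features, and 22 members lay above 0 and 21 below, where 53.9% and 46.1% of features did. Calls depended on the variance model. With the slide as a block and limma's trended, robust variance, Bmp3, Inhba, Tgfb2 and Tgfb3 passed as higher (1.15% of all features) and Acvr2b as lower (1.22%). That fit left 1 residual degree of freedom, so its variances leaned on the trend over all features and these calls rest on that model. The block with limma's standard variance called 0 members and had 6 higher (7.02% of features) and 4 lower (4.54%) at an unadjusted p under 0.05.

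**Figure D2:**
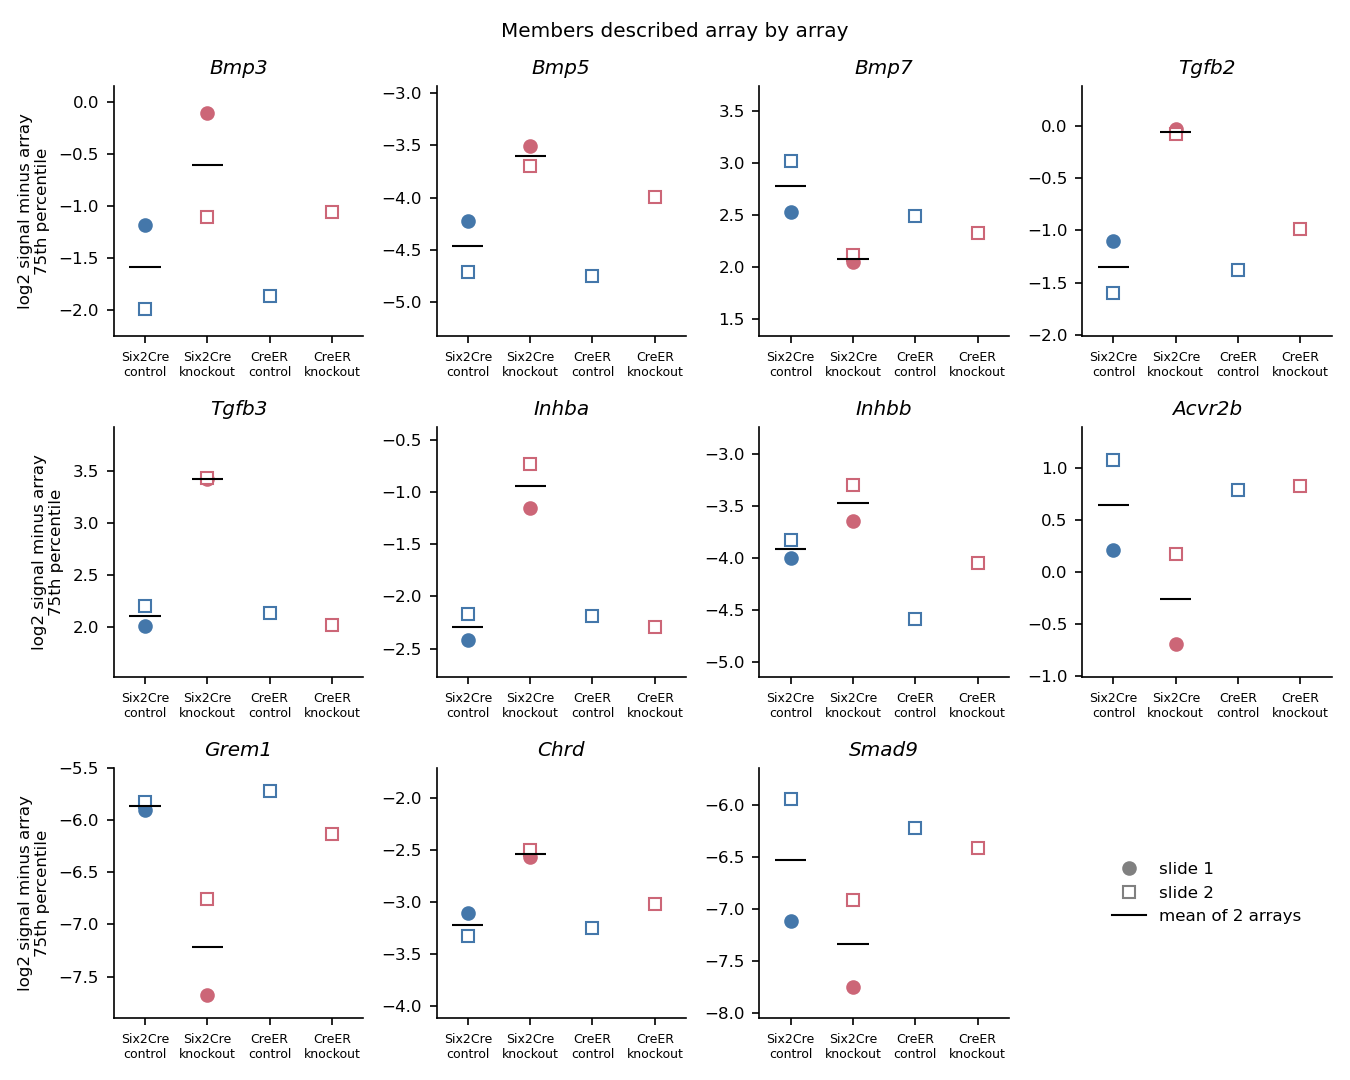
Log2 signal relative to the array's 75th percentile of 11 members, in controls (blue) and knockouts (red) of each line, with a filled circle for a slide 1 array, an open square for a slide 2 array, a bar for the mean of 2 arrays and a separate axis range for each gene. For Tgfb3 the Six2Cre knockouts were at 3.42 and 3.43 and the other 4 arrays between 2.01 and 2.20, while for Bmp3 each knockout lay above the control of its own slide.

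Among the TGF-beta and activin ligands, Tgfb3, which signals through Tgfbr1 and Tgfbr2, stood at 2.01 and 2.20 in the Six2Cre controls and at 3.42 and 3.43 in the knockouts. The groups did not overlap, and the knockouts were higher by 1.32 (SE 0.25, 2.49-fold, limma adjusted p = 0.275), with 1.41 within slide 1 and 1.23 within slide 2. Tgfb2, a ligand required for normal development of the kidney, was at -1.10 and -1.60 in the controls and at -0.03 and -0.08 in the knockouts. Both knockouts again lay above both controls, by 1.29 on average (SE 0.29, 2.45-fold, limma adjusted p = 0.378), with 1.07 and 1.52 within the slides. Inhba encodes the inhibin beta A subunit, which forms activin A as a dimer. Its controls were at -2.42 and -2.17 and its knockouts at -1.15 and -0.73, a difference of 1.36 (SE 0.29, 2.56-fold, limma adjusted p = 0.336) with no overlap, and 1.27 and 1.44 within the slides. Inhbb, the beta B subunit, was at -4.00 and -3.83 in the controls and at -3.65 and -3.30 in the knockouts. The groups did not overlap, but the difference of 0.44 (SE 0.27, 0.35 and 0.53 within the slides) had a limma adjusted p of 1, and its second probe gave 0.33. Tgfb1 at -0.22 and Gdf11, a ligand needed for the ureteric bud to form, at 0.12 had overlapping groups. These ligands were measured in kidneys where 9 of 10 stromal markers were higher in the knockouts (median difference 0.60). Which cells made the ligands, and the part of the stroma in their differences, was not tested.

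Of the 6 BMP ligands, Bmp3 and Bmp5 were higher in both pairs and the other 4 were lower in both. Bmp3, an atypical BMP that opposes the others, was at -1.18 and -1.99 in the Six2Cre controls and at -0.11 and -1.11 in the knockouts. The slides differed in level, so the groups were separated by only a narrow margin, whereas the differences within slides were alike (1.06 and 0.88). Its mean difference was 0.97 (SE 0.48, 1.96-fold, limma adjusted p = 0.977). Bmp5, of the same subgroup of BMPs as Bmp6 and Bmp7, was at -4.22 and -4.71 in the controls and at -3.51 and -3.70 in the knockouts. The groups did not overlap, with a difference of 0.86 (SE 0.29, 1.82-fold, limma adjusted p = 0.7) and 0.71 and 1.01 within the slides, and its second probe gave 0.75. Bmp7 was at 2.53 and 3.02 in the controls and at 2.05 and 2.11 in the knockouts. Both knockouts lay below both controls, by 0.70 on average (difference -0.70, SE 0.29, 1.62-fold, limma adjusted p = 0.849), with -0.48 and -0.92 within the slides, and its second probe gave -0.72. The nephron progenitor list, whose cells are a known source of Bmp7, was lower in the same kidneys, with a median difference of -1.19. Of the ureteric bud markers, whose cells are another source, 5 of 8 were higher and 3 lower (median difference 0.22). The part of either cell type in the Bmp7 difference was not tested. Bmp2, a BMP that inhibits branching of the ureteric bud in culture, was lower without overlap (-0.85, SE 0.33, limma adjusted p = 0.8), but by -1.35 within slide 1 and -0.36 within slide 2. Bmp4 at -0.19 and Bmp6 at -0.11 overlapped between the groups.

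Among the 10 receptors, 8 had a mean above 0 and 2 below, and 1 had a large difference of the same size in both pairs. Acvr2b, a type II receptor for activins and several GDF and BMP ligands, was at 0.21 and 1.07 in the Six2Cre controls and at -0.69 and 0.17 in the knockouts. The highest knockout lay just under the lowest control, and each pair differed by -0.90 (mean -0.90, SE 0.46, 1.86-fold, limma adjusted p = 1). The related type II receptor Acvr2a differed by 0.07. The other 9 receptors lay between -0.41 (Bmpr2, the main type II BMP receptor) and 0.57 (Bmpr1b, a type I BMP receptor), with limma adjusted p of 1. Bmpr2 was -0.91 within slide 1 and 0.09 within slide 2. Acvr1, the type I receptor also known as ALK2, was higher by 0.27 and 0.84 within the slides with overlapping groups. Bmpr1a, the type I receptor also known as ALK3, was higher by 0.25 and 0.28 without overlap, and the TGF-beta type II receptor Tgfbr2 by 0.34 and 0.35 with overlapping groups.

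The 9 antagonists and binding proteins lay on both sides of 0, 4 above and 5 below. Grem1 was at -5.90 and -5.83 in the Six2Cre controls and at -7.68 and -6.76 in the knockouts. The knockouts lay below both controls, by 1.36 on average (difference -1.36, SE 0.38, 2.57-fold, limma adjusted p = 0.555), with -0.93 within slide 2. It was a dim probe, with processed signals of 9.95 to 39.1 over the 6 arrays, and 1 of the 2 knockout arrays measured it well above background. On the other, knockout 7, it was not well above background. The difference within slide 1 (-1.79, 3.45-fold lower) is therefore an uncertain estimate, and the mean difference rests in part on it. Chordin (Chrd), which holds BMPs away from their receptors, was at -3.11 and -3.33 in the controls and at -2.57 and -2.5 in the knockouts. The groups did not overlap and the difference was 0.68 (SE 0.25, 1.61-fold, limma adjusted p = 0.758), with 0.54 and 0.83 within the slides. Follistatin (Fst), which binds activins, did not repeat between pairs: it was -2.01 within slide 1 and 0.35 within slide 2, and 0.61 without Six2Cre knockout 7. Fstl1, a secreted follistatin-like protein, was higher by 0.29 in both pairs. Noggin (Nog) was at -0.23, and Bmper, Fstl3, Chrdl1 and the latent TGF-beta binding protein Ltbp1 lay between -0.06 and 0.03.

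**Figure D3:**
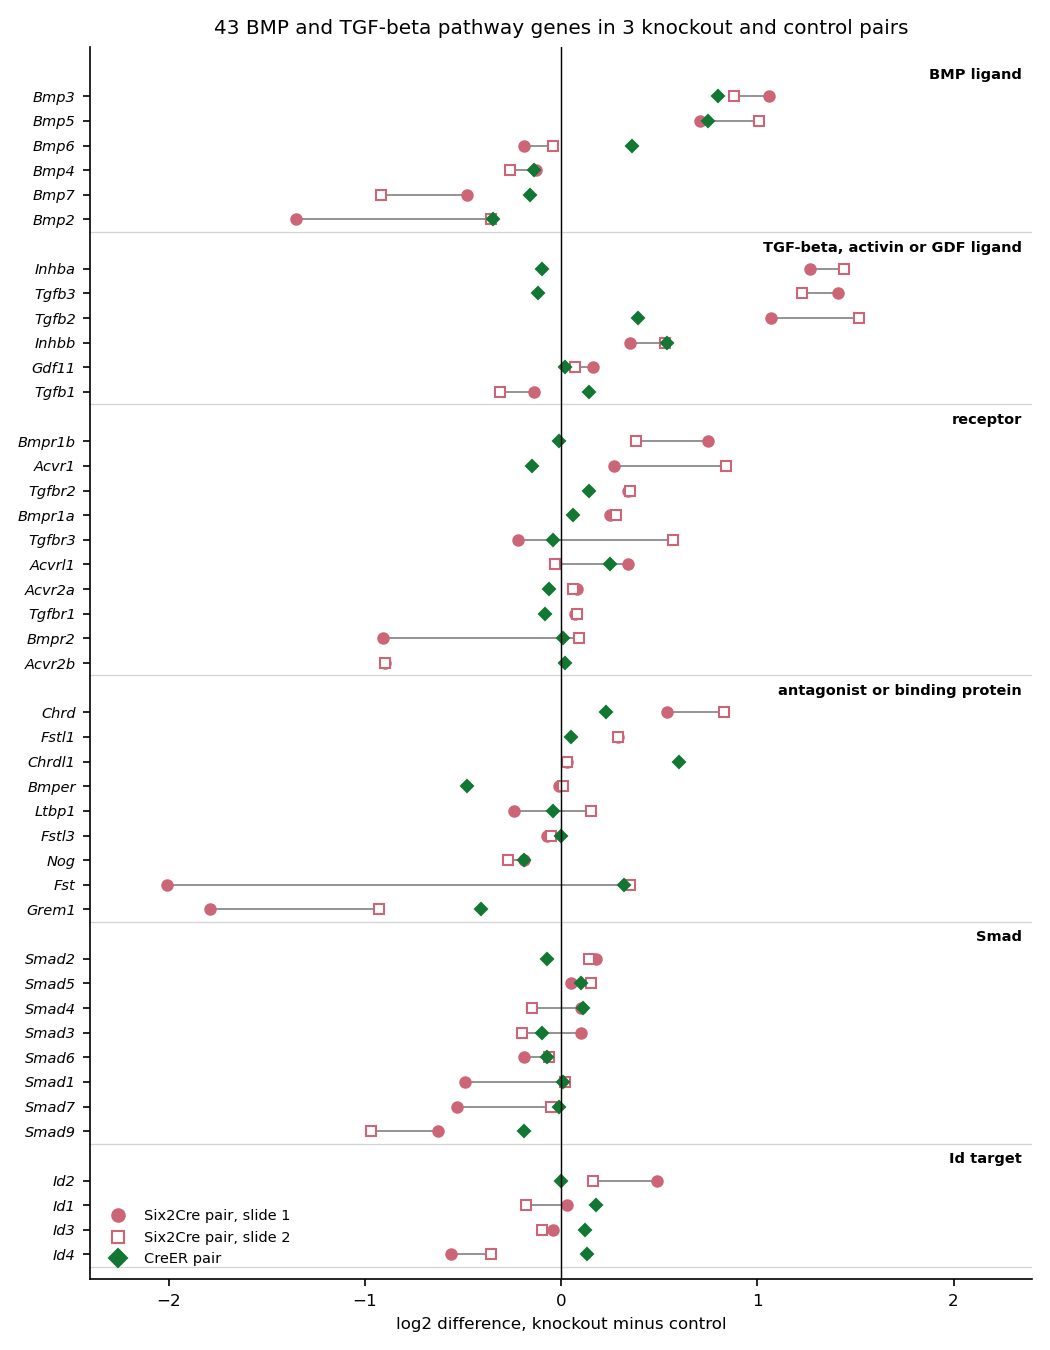
Knockout minus control difference (log2) of each of the 43 members, grouped by role, in the Six2Cre slide 1 pair (filled circles), the Six2Cre slide 2 pair (open squares, joined to the circle by a line) and the CreER pair (green diamonds). Tgfb2, Tgfb3 and Inhba lay above 1 in both Six2Cre pairs, whereas their CreER values were 0.39, -0.12 and -0.10.

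The Smads other than Smad9 differed little. Smad1, Smad2, Smad3, Smad4, Smad5, Smad6 and Smad7 lay between -0.29 and 0.16, with limma adjusted p of 1. Of these, Smad5 was higher (0.10) and the inhibitor Smad7 lower (-0.29) without overlap between the groups. Smad7 differed by -0.53 within slide 1 but by -0.05 within slide 2. Smad9, which like Smad1 and Smad5 is phosphorylated by BMP receptors, was at -7.12 and -5.95 in the Six2Cre controls and at -7.75 and -6.92 in the knockouts. Its groups overlapped, since control 5 lay below knockout 9, but within the slides it was lower by 0.63 and by 0.97 (differences -0.63 and -0.97; mean -0.80, SE 0.53, limma adjusted p = 1). Its processed signals were between 9.48 and 30.8, near the lower end of what the arrays measured.

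The Id genes, read-outs of BMP signalling in many cells, lay on both sides of 0. Id1 and Id3 were each at -0.07, within the spread of their controls. Id2 was at 0.33, with 0.49 and 0.16 within the slides and overlapping groups. Id4 was lower without overlap, from 1.80 and 1.33 in the controls to 1.24 and 0.96 in the knockouts (-0.46, with -0.56 and -0.36 within the slides, limma adjusted p = 1), and its second probe gave -0.47.

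The 2 slide pairs had the same sign for 33 of 43 members (76.7%), against 59.1% of all features. In the Six2Cre line 10 members were higher without overlap between the groups (17.6% of features were) and 6 were lower without overlap (12.6% of features).

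**Figure D4:**
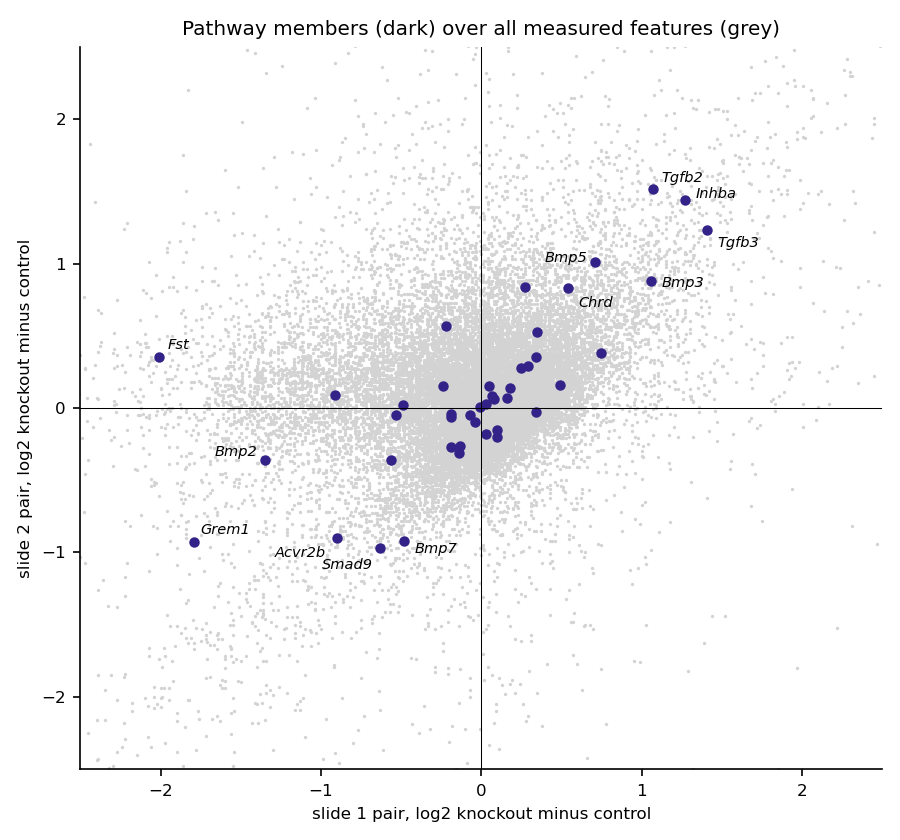
Knockout minus control difference (log2) within slide 2 against that within slide 1 for all features (grey) and the 43 members (dark points, the farthest ones named), with axes that end at 2.5 log2 units each way and leave out 460 features. Tgfb2, Tgfb3 and Inhba stand above 1 on both axes, and Fst stands at -2.01 and 0.35.

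The inducible line gave 1 pair of arrays and no test. Of the 43 members 24 lay above 0 and 19 below, where 48.6% and 51.4% of features did. None was at least 2-fold apart in this pair, where 1.38% of 25925 features were higher and 2.21% lower by that much. Bmp3 (0.80), Bmp5 (0.75) and the BMP-binding protein Chrdl1 (0.60) were at least 1.5-fold higher in the CreER knockout, as were 3.73% of features, and no member was 1.5-fold lower (6.2% of features). Bmp3 was at -1.86 in the CreER control and -1.06 in the knockout, and Bmp5 at -4.75 and -3.99. Both lay in the direction of the Six2Cre pairs. In the CreER pair the erythroid markers summed to 178 in the control and 300 in the knockout (median difference 0.80) and the macrophage and leukocyte markers to 3.12 and 4.02, and their part in these values was not tested. Tgfb3 (-0.12) and Inhba (-0.10) lay near 0 in this pair: Tgfb3 was at 2.14 in the control and 2.02 in the knockout, and Inhba at -2.19 and -2.29. Tgfb2 went from -1.38 to -0.99 (0.39) and Grem1 from -5.72 to -6.13 (-0.41). The dimmest signal well above background on the CreER knockout was at -6.42, so Grem1 was near the floor there. Bmp7 went from 2.49 to 2.33 (-0.16) and Acvr2b from 0.79 to 0.82 (0.02). Bmper had the lowest difference of any member in this pair (-0.48, and -0.51 by its second probe). Chrd was at -3.25 and -3.02 and Inhbb at -4.59 and -4.05, although a second probe of Inhbb gave -0.02 in this pair. Smad9 was not well above background on the CreER knockout, so its reading there, 1.14-fold lower than in the control, is an uncertain estimate.

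The difference between lines (CreER minus Six2Cre) was tested with limma in the 4-group fit, in which the spread of the CreER groups, of 1 array each, was taken to equal that of the Six2Cre arrays. It was -1.44 for Tgfb3 (SE 0.42) and -1.45 for Inhba (SE 0.49), and neither passed adjustment (limma adjusted p = 1). The SE holds no spread of the CreER groups themselves, so a difference between the lines is not shown. These were the only 2 members at an unadjusted p under 0.05, as were 2.34% of all features. The lines differed in how Sall1 was deleted and in the progenitor and stromal sums given above, and these cannot be told apart.

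When genotype was fitted over all 6 arrays, with terms for the line and the slide, limma again called 0 members and 0% of features at an adjusted p under 0.05. At an unadjusted p under 0.05, 5 members were higher (Bmp3, Bmp5, Chrd, Inhbb and Tgfb2, with 5.77% of features) and 3 lower (Bmp7, Grem1 and Smad9, with 3.91% of features). Bmp3 had the lowest p of any member, at 0.91 (SE 0.12, limma adjusted p = 0.258), followed by Bmp5 at 0.83 (SE 0.13, limma adjusted p = 0.282). Tgfb2 was at 0.99 (SE 0.25, limma adjusted p = 0.432), Grem1 at -1.04 (SE 0.30, limma adjusted p = 0.452) and Bmp7 at -0.52 (SE 0.19, limma adjusted p = 0.513). In all 3 pairs 12 members were higher (20% of features) and 8 lower (14.3% of features).

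Other genes of the pathways were read from a second list of 86 genes, of which 72 were measured. None passed at a limma adjusted p under 0.05. At an unadjusted p under 0.05 by limma, 6 were higher and 3 lower, as were 3.61% and 2.7% of all features. With the slide as a block and trended, robust variance, limma called Cdkn2b, Dcn, Ltbp3 and Vwc2 as higher (1.15% of features) and Hey1 and Sostdc1 as lower (1.22%). These calls too come from the fit with 1 residual degree of freedom and rest on its variance model. Cdkn2b, which encodes the cell cycle inhibitor p15 and is induced by TGF-beta in epithelial cells, was at -3.53 and -3.38 in the Six2Cre controls and at -1.84 and -2.08 in the knockouts (1.5, SE 0.26, 2.82-fold, limma adjusted p = 0.232), with 1.69 and 1.3 within the slides. In the CreER pair it was at -3.78 and -3.73 (0.05). Pmepa1, a TGF-beta target that restrains Smad signalling, was higher by 0.80 (SE 0.27), with 1.00 and 0.61 within the slides. Dcn, the TGF-beta binding proteoglycan decorin, was higher by 0.88 (SE 0.25), with 0.77 and 0.99. Dcn is also on the stromal marker list. Gdf10, a ligand of the TGF-beta family, was higher by 0.99 (SE 0.30), with 0.75 and 1.24 within the slides.

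Among the lower genes of that list, Sostdc1, a secreted antagonist of BMP and Wnt signalling, was at 0.94 and 1.32 in the Six2Cre controls and at -0.42 and -0.43 in the knockouts (-1.55, SE 0.27, 2.94-fold, limma adjusted p = 0.238), with -1.36 and -1.75 within the slides. It was -0.36 in the CreER pair. Chrdl2, a chordin-like antagonist, was at -1.13 (SE 0.32), with -0.98 and -1.29 within the slides. Hey1, a transcriptional repressor downstream of Notch and BMP signals, was at -0.87 (SE 0.25), with -0.94 and -0.81. Vwc2, a secreted BMP-binding protein also called brorin, was the gene of this list that was at least 2-fold higher in all 3 pairs: it stood at -2.98 and -3.30 in the Six2Cre controls and at -1.79 and -1.76 in the knockouts (1.37, SE 0.26, 2.58-fold, limma adjusted p = 0.278), with 1.19 and 1.54 within the slides. In the CreER pair it was at -3.50 and -1.94 (1.56, 2.95-fold).

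Of the 43 members, 18 had more than 1 probe above the background filter. For 2 of them probes disagreed in sign in the Six2Cre comparison: Chrdl1 (0.03 by the brighter probe and -0.31 by the other) and Tgfbr1 (0.07 and -0.18). Tgfb2, Tgfb3, Inhba, Bmp3, Acvr2b, Grem1, Chrd, Smad9 and Fst rested on 1 probe each.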

How the data were processed

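Total RNA of 6 E14.5 kidney samples was labelled with Cy3 and hybridised to 1 array each, and the scans were read with Agilent Feature Extraction software (version 10.5.1.1). Per the file headers, the values are a linear processed intensity from which background had been subtracted, with spatial detrending on each array but no scaling of arrays to each other. The value table deposited for the series held the same intensity (100% of values within a relative tolerance of 0.001), with column medians of 186.4 to 234.1, so its scale is linear and it is neither centred nor a ratio. No spot was saturated, and r between arrays ran from 0.968 to 0.993 across features, which are not independent replicates.

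Spots of a probe were averaged, leaving out flagged outliers (40987 of 41174 non-control probes were measured on all arrays), and log2 values were taken minus the array's 75th percentile. RefSeq accessions named 24999 probes for 17235 genes, and the probe with the highest mean signal stood for a gene. Array design and annotation use different genome builds, so no probe positions are given. Features well above background on at least 2 arrays were kept: 26394, of which 15235 were named genes.

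limma 3.58.1 in R 4.3.3 (data.table version 1.17.8) fitted the 4 groups (lmFit, eBayes, two-sided, Benjamini-Hochberg over all features at 0.05), and genotype was also fitted over all 6 arrays with terms for the line and the slide. Slide 1 held Six2Cre control 5 and knockout 7 and slide 2 the other 4 arrays, with scan batches that followed the slides. The fits were run on simulated arrays with known changes, as a check of the estimated differences. The simulated noise was set below the fitted variance, so the check does not measure false calls in these arrays. The CreER pair has no test. Alternatives were the slide as a block (also with trended and robust variance), normexp with an offset of 50, quantile and median scaling, the mean of a gene's probes, no filter or a filter on all 6 arrays, and each array left out. For normexp the median spot intensity was used. Promoters were searched in Python 3.11.15 and figures drawn with matplotlib 3.10.9.

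Members were given array by array where both slide pairs were at least 1.5-fold apart in 1 direction, where an unadjusted limma p in either fit was under 0.05, or where the CreER pair was at least 2-fold apart. This held for 11, and the other 32 are given by range. Of the 12 other pathway genes that met the rule in the Six2Cre comparison, the 8 with the lowest p were named. Ltbp3 and Hjv also met it and are given as other observations. The single values of further members were chosen after they were seen. The members, lists and tests were chosen with earlier results of these data known. The labels do not say whether the arrays came from separate embryos, so p-values measure the spread between these samples, and the number of arrays limits the precision.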

Additional observations from a re-analysis of the deposited data

Results flagged for a closer look

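For Tgfb3 and Inhba, the difference in knockout effect between the lines had an unadjusted p under 0.05, which does not show that the lines differ. For Tgfb3 the CreER difference minus the Six2Cre difference was -1.44 (SE 0.42), from -0.12 in the CreER pair and 1.32 in the Six2Cre arrays. For Inhba it was -1.45 (SE 0.49), from -0.10 and 1.36. The limma unadjusted p was 0.0216 and 0.0349 and the adjusted p was 1 for both, and 2 of 43 members (4.65%) and 2.34% of all features had an unadjusted p under 0.05. The SE was borrowed from the Six2Cre arrays. The CreER side of each is a single pair of arrays, the knockout of which had fewer probes well above background (71.8%), and the part of this in the difference was not tested.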

How the results depend on the processing

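The controls and knockouts compared share no replicate number, so they could be paired by slide alone. The fit with the slide as a block, which pairs the Six2Cre arrays within slides, called 0 features with standard variance. Unless named otherwise, the SE and adjusted p of single genes in the Six2Cre comparison come from the fit without the block. They therefore hold the offset between slides: the SE was 0.46 for Acvr2b and 0.48 for Bmp3, against 0.17 and 0.18 with the block. The fit with the block left 1 residual degree of freedom, so its SE leaned on the spread of all features. Fstl1, for example, also had 0.17, and these values are not a precision measured for each gene. Over their alternatives, none of the 11 members described array by array changed sign in the Six2Cre comparison (130 values, 5 of which newly passed the threshold). None did over all 6 arrays (130 values, none past it), and none of the 8 other pathway genes did (96 values, 5 newly past it). These genes were chosen by the same differences, so their steady sign was largely set by that choice. Where the Six2Cre groups do not overlap, leaving out 1 array cannot turn the sign. With the slide as a block and limma's trended, robust variance, 304 features were called higher, 323 lower and 5 members in all, against 0, 0 and 0. This variance in the fit over 6 arrays called 6 higher and 6 lower features. Normexp called 16 higher and 20 lower over 6 arrays, left 1 member at least 1.5-fold lower in both slide pairs in place of 3, and gave 114 higher and 46 lower features in the CreER pair at 2-fold in place of 358 and 574. Median scaling called 32 higher and 96 lower in the Six2Cre comparison and 41 and 18 over 6 arrays, with no member among them in either fit. Without a filter, 4417 features were 2-fold higher in the CreER pair, and with detection on all 6 arrays 92 were lower and 1 member was 1.5-fold lower in both slide pairs. At 2-fold in place of 1.5-fold, 3 members were higher and 0 lower in both pairs. The cause was not tested. Scaling moved the median of all features in the Six2Cre comparison from 0.028 to 0.066 (median) or 0.022 (quantile).

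Values near 0 turned: Bmper was -0.03 with quantile normalization and -0.0028 with the mean of its probes, Smad4 was 0.02 with median scaling, and with the mean of probes Tgfbr1 was -0.05 and Chrdl1 -0.14. With each array left out in turn, the Six2Cre difference changed sign for 20 other members: Bmp4 (-0.52 to 0.13), Bmp6 (-0.29 to 0.06), Bmper (-0.27 to 0.27), Acvr2a (-0.21 to 0.35), Acvrl1 (-0.38 to 0.69), Tgfb1 (-0.49 to 0.05), Tgfbr1 (-0.14 to 0.28), Tgfbr3 (-0.11 to 0.45), Gdf11 (-0.21 to 0.44), Fst (-2.28 to 0.61), Fstl3 (-0.22 to 0.10), Chrdl1 (-0.04 to 0.10), Smad1 (-0.58 to 0.10), Smad2 (-0.15 to 0.47), Smad3 (-0.20 to 0.10), Smad4 (-0.16 to 0.12), Smad6 (-0.54 to 0.28), Id1 (-0.33 to 0.19), Id3 (-0.20 to 0.06) and Ltbp1 (-0.28 to 0.19). Of the members described array by array, the ranges were widest for Smad9 (-1.38 to -0.21), Bmp3 (0.48 to 1.47), Grem1 (-1.82 to -0.90) and Acvr2b (-1.33 to -0.47), and Tgfb3 stayed between 1.22 and 1.41, Inhba between 1.15 and 1.56 and Tgfb2 between 1.05 and 1.54. Where an array left out leaves 1 in a group, that array was assumed to vary like the other groups. Signal over background limits Grem1, Smad9 and Tgfbr3, whose processed signals reached no more than 43.1.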

Other observations

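Among the other pathway genes, Hjv, a BMP co-receptor of skeletal muscle, stood at -2.86 on Six2Cre control 2 and between -8.11 and -5.83 on the other 5 arrays, and it was well above background on 5 of the 6. That array was also the one on which the muscle markers summed to 22.6, against 1.31 to 2.96 elsewhere. Lefty2, a secreted inhibitor of Nodal, was at -5.29 in the CreER control and not well above background in the CreER knockout, where it was at least 2.19-fold lower against the dimmest signal well above background. It was well above background on 3 of the 6 arrays. Ltbp3, a latent TGF-beta binding protein, was higher in both Six2Cre pairs, by 1.05 and 0.70 (mean 0.88, SE 0.29, limma adjusted p = 0.677), and by 0.22 in the CreER pair. With the slide as a block and trended, robust variance (1 residual degree of freedom), its limma adjusted p was 0.0386.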
